A study of Gallus gallus with 23 samples.

Results

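Solute carriers, the SLC genes, were followed in the livers of broiler cockerels given corticosterone, thyroid hormone or both. Every array spot whose annotated gene symbol starts with SLC and a digit was taken, apart from SLC25A1, SLC25A20, SLC27A2, SLC37A4 and SLC4A1, which left 116 genes on 194 spots out of 121 such genes on 202 spots. The array names 6428 genes in all. Of the 116 genes, 67 had 1 spot and 49 had several, up to 6 for SLC7A5. A gene could be tested where at least 3 arrays of each group gave a value, which 87 genes met and 29 did not. A few members carry the family's symbol without being carriers, since SLC9A3R1 and SLC9A3R2 are scaffold proteins and SLC7A6OS is named for lying opposite SLC7A6.

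Solute carriers are membrane proteins that move amino acids, sugars, organic acids, ions, metals, vitamins and nucleotides across the plasma membrane and the membranes of organelles. Most work by facilitated diffusion, exchange or cotransport down an ion gradient, so they use no ATP directly. In the liver they take up amino acids and fatty acids from blood and release glucose. Carriers of the SLC25 family move metabolites, phosphate, ADP and ATP across the inner mitochondrial membrane.

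The birds were Ross x Cobb cockerels that carried a pump under the skin from 29 days of age, and liver RNA was taken after 6 days of treatment. The group CS+T3 (5 arrays) received corticosterone, the main glucocorticoid of birds, at 600 micrograms per kg per day together with triiodothyronine, the active thyroid hormone, at 192 micrograms per kg per day. The group CS (6 arrays) received corticosterone alone at that dose, the group T3 (6 arrays) triiodothyronine alone at that dose, and the group VC (6 arrays) a pump with the vehicle, dimethyl sulfoxide and propylene glycol. Each array, taken here as 1 bird, was set against a common pool of liver RNA from 6 control birds. The spotted cDNA arrays held 19200 spots, and their values were read as log2 ratios, a base the sources do not state. The labels number the replicates without saying that each is a separate bird, and if some are not, the p-values measure only the spread between samples. Liver was sampled whole, so fewer cells of a type and less RNA per cell cannot be told apart.

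On 6 arrays the values stood away from their annotated place and were moved back. Replicate 1 of CS+T3, replicate 3 of CS, replicate 3 of T3 and replicate 4 of VC were misplaced over most spots. Their main lag, the distance along the spot order, was 7, 13, 14 and 4 spots in that order. CS+T3 replicate 2 and T3 replicate 1 were misplaced over a part, at lags up to 13 and 20 spots. Before the move the 4 misplaced over most spots correlated with the remaining arrays at -0.043 to 0.01 across spots, and after it at 0.302 to 0.544. T3 replicate 1 stood at 0.112 before and at 0.174 after, the lowest of all arrays then, and CS+T3 replicate 2 stood at 0.441 and 0.476. The earlier values are against all other arrays, the later ones only against arrays that correlated well in place. Arrays that were not moved changed too, CS replicate 5 from 0.55 to 0.586 and VC replicate 5 from 0.266 to 0.233. A rise as small as that of CS+T3 replicate 2 therefore does not show that the move worked. The blank spots did not share the lag: on the 4 arrays they matched those of other arrays in place (correlations of 0.791 to 0.84) and not at the lag (0.053 to 0.206). Values that came to lie on a blank spot, or in a block where the lag changed, were dropped, and 6348 of 10919 values remained on CS replicate 3 and 7435 of 11788 on T3 replicate 3. Another property set 6 arrays apart, a wider spread of ratios than on the others (SD of 0.473 to 0.56, against 0.177 to 0.363). They were 1 of CS+T3, 3 of CS, 2 of T3 and 0 of VC. The deposited values do not state which channel is on top. A positive value was read as more RNA in the bird than in its reference pool, which is likely because the sample titles name the bird first and because the thyroid-responsive gene THRSP was then higher in CS+T3 than in CS (1.65, SE 0.32, limma adjusted p = 0.00822). THRSP averaged 0.81 in T3 alone (lowest -0.28, n = 6) and -0.04 in VC (highest 0.38, n = 6). Those groups overlapped, and no feature passed in T3 against VC. Of 15 hepatocyte markers 13 were tested and 7 fell in CS against VC, where the 13 ran from -1.78 to 0.28 (median -0.92). The mean over the list was -1.23 to -0.31 per array in CS and -0.07 to 0.16 in VC. In CS against T3 7 of the 13 fell and 1 rose (median -0.77). In CS+T3 against CS 3 rose (median 0.70), the direction of SLC51A and SLC25A12 there. Among all features 3.07% fell in CS against VC. In CS against T3 5.14% of all features fell and 2.63% rose, and in CS+T3 against CS 2.25% rose. Of 10 leukocyte markers tested, BTK and CYBB fell in CS against VC, where the 10 ran from -0.71 to 0.27 (median -0.08). CD74, CYBB and MARCO fell in CS against T3 (median of the 10 -0.05), and BTK rose in CS+T3 against CS (median 0.07). Of 5 erythrocyte markers SLC4A1 rose in CS against VC (0.36) and SPTB stood at 0.75 without passing, while the haemoglobin genes HBA1 and HBBA stood at 0.10 and 0.04. SLC4A1 also rose in CS against T3 and fell in CS+T3 against CS. Of 4 bile duct markers TM4SF4 fell in CS against VC (-1.30) and EPCAM, KRT7 and SPP1 stood at 0.08, 0.15 and -0.09. TM4SF4 also fell in CS against T3 and rose in CS+T3 against CS. The part of these shifts in the results on solute carriers was not tested.

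Solute carriers passed the test only in comparisons that include the CS group. In CS against VC, which asks what corticosterone did alone, 4 of the 87 genes fell and 0 rose: SLC51A, which exports bile acids, SLC25A12, the mitochondrial aspartate-glutamate carrier, SLC9A3R1 and SLC8B1, the mitochondrial sodium-calcium exchanger. That is 4.6% of the genes tested, against 4.03% of all 9252 features called in that comparison and 3.07% that fell, so the family was called about as often as the array as a whole. In CS against T3, which sets the hormones against each other, 7 fell and 2 rose (10.3% in all, against 7.77% of all features, made up of 5.14% that fell and 2.63% that rose). These were the same 4 with SLC35C2, SLC25A3 and SLC30A4 below and SLC43A2 and SLC30A6 above. In CS+T3 against CS, which asks what thyroid hormone did in the presence of corticosterone, SLC51A and SLC25A12 rose and 0 fell (2.3%, against 2.6% of all features called and 2.25% that rose). These comparisons share the CS arrays, so their calls are not separate pieces of evidence. Without the 6 arrays of wider spread, a setting chosen after the data were seen, 0 of 47 testable members passed in any of them, where 32 of all 5038 features passed in CS against VC, 7 in CS against T3 and 0 in CS+T3 against CS.

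The sizes of the differences were also like those of the array at large. The median absolute log2 difference of the 87 genes was 0.129 in CS against VC, 0.193 in CS against T3 and 0.164 in CS+T3 against CS, beside 0.144, 0.17 and 0.165 over all features. At an unadjusted p under 0.05 stood 20 of the 87 in CS against VC (23.0%, against 19.6% of all features), 28 in CS against T3 (32.2%, against 25.1%) and 24 in CS+T3 against CS (27.6%, against 21.1%). The signed medians lay near 0, at 0.013, 0.04 and -0.02 for the solute carriers and at 0.034, 0.052 and -0.04 for all features. Birds of a group differed by a median SD of 0.17 in CS+T3, 0.20 in CS, 0.20 in T3 and 0.16 in VC over the 87 genes. The groups did not overlap for 7 of the 87 in CS against VC, of which 3 were called. It was 8 in CS against T3 (4 called) and 7 in CS+T3 against CS (2 called). The share over all features was not counted. A lack of overlap comes from the same values as a call and is no separate support for it.

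**Figure D1:**
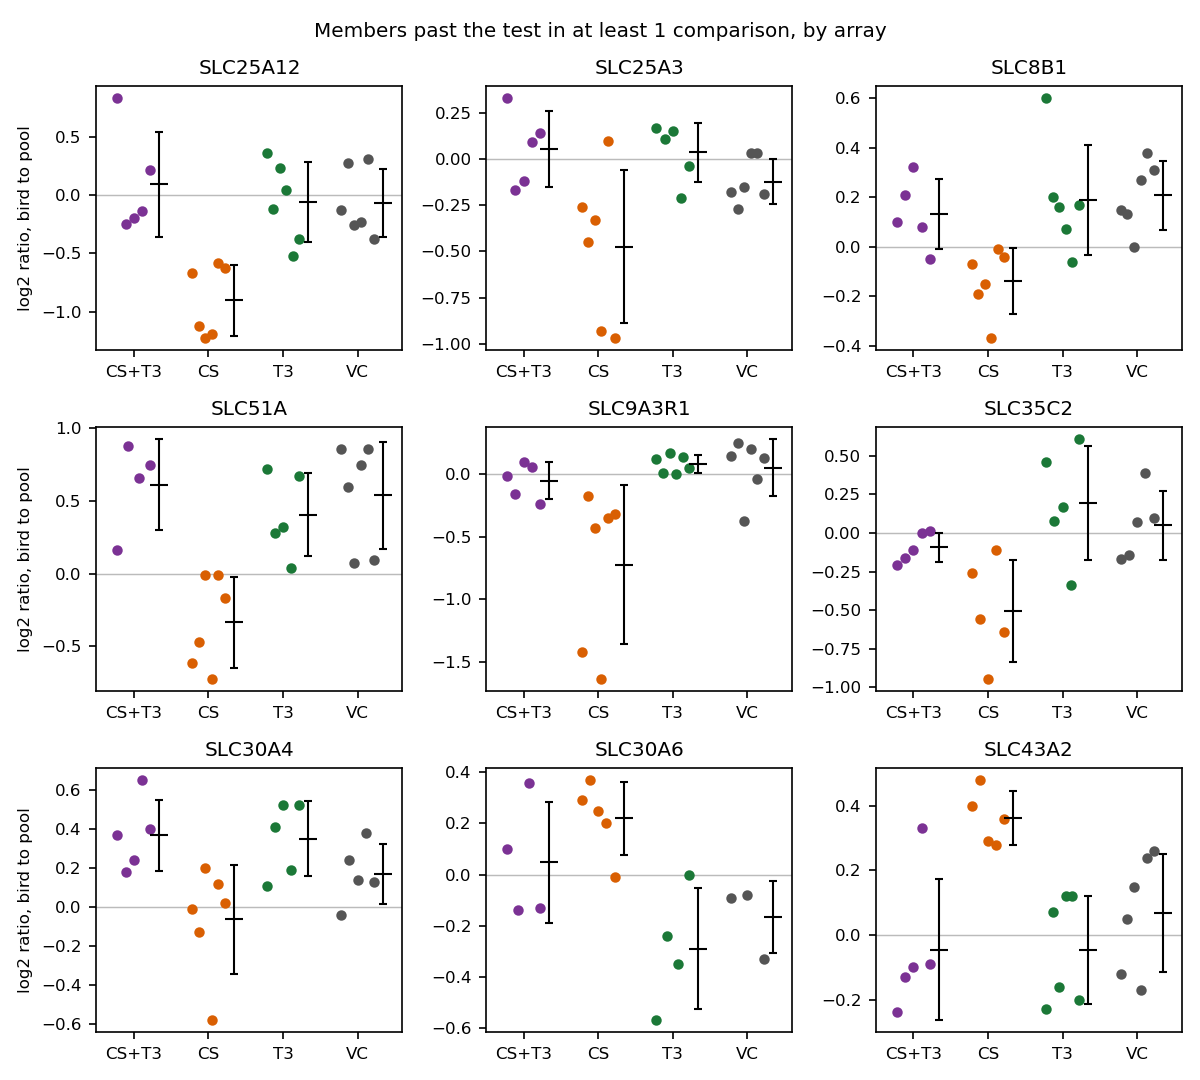
Log2 ratio of bird to pool (vertical axis, no unit, scaled separately in each panel) on each array for the 9 members past the test in at least 1 comparison, with groups along the horizontal axis. Each point is 1 array and the bar beside it is the mean with the SD. For SLC25A12 and SLC51A every CS array lies below every array of the other 3 groups. The same values gave the calls.

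SLC51A encodes the alpha subunit of the basolateral transporter that exports bile acids and steroid conjugates from cells. Log2 ratios were 0.16, 0.88, 0.66 and 0.75 in the 4 CS+T3 birds with a value. They ran from -0.73 to -0.01 in CS (median -0.32, n = 6), were 0.72, 0.28, 0.32, 0.04 and 0.67 in T3 and ran from 0.07 to 0.86 in VC (median 0.67, n = 6). All 6 CS birds lay below every bird of the other groups, which overlapped one another. SLC51A fell by 0.87 on the log2 scale in CS against VC (SE 0.18, limma adjusted p = 0.00609), a 1.83-fold difference. It was lower by a log2 difference of -0.74 in CS against T3 (SE 0.19, adjusted p = 0.0178) and higher by 0.95 in CS+T3 against CS (SE 0.20, adjusted p = 0.0123). Between CS+T3 and VC it differed by 0.07, with a 95% interval of -0.34 to 0.48. The T3 effect was larger with corticosterone than without by 1.08 (SE 0.27, unadjusted p = 0.000637), which did not pass over all features (adjusted p = 0.186). In VC the mean was 0.54 ± 0.37 (SD), above the pool of control birds. SLC51A has 1 spot. Of 35 other settings its call was lost in 2 in CS against VC, 5 in CS against T3 and 3 in CS+T3 against CS. Quantile normalization lost the call in CS against T3 (adjusted p = 0.119). It kept those in CS against VC (adjusted p = 0.0159) and in CS+T3 against CS (adjusted p = 0.0367).

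Among the members, the other carriers of bile acids and organic ions stayed within a narrower range. SLCO1A2, an organic anion transporter outside the SLC symbols that is described below, did not. It stood at -0.95 in CS against T3 and at 1.22 in CS+T3 against CS. Beside SLC51A, 5 members of this class were tested and 0 were called in any comparison. In CS against VC they lay between -0.03 for SLC47A2 and 0.28 for SLC22A7, the organic anion transporter OAT2 of the liver. SLC47A1 and SLC47A2 encode the extrusion transporters MATE, which release organic cations. In CS against T3 the 5 lay between -0.26 for SLC22A23 and 0.37 for SLC22A7. SLC22A7 and the genes given below only as the end of a range were named after their values were seen.

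Of the 20 mitochondrial carriers 15 were tested, and most of them lay below 0 in CS against VC and above 0 in CS+T3 against CS. Their median log2 difference was -0.07 in CS against VC with 4 of 15 positive, -0.16 in CS against T3 with 5 positive, and 0.16 in CS+T3 against CS with 11 positive. The medians over all features were 0.034, 0.052 and -0.04 in those comparisons. One of the 15 fell in CS against VC, 2 fell in CS against T3, 1 rose in CS+T3 against CS, and 0 moved the other way. Over all features 3.07% fell in CS against VC, 5.14% fell in CS against T3 and 2.25% rose in CS+T3 against CS. With 15 genes these calls cannot be told from those shares, and the share of features above 0 was not counted. The lean of the class was seen after the values were known and was not tested.

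SLC25A12, also called aralar, exchanges mitochondrial aspartate for glutamate and is a step of the malate-aspartate shuttle, which carries reducing equivalents into mitochondria. Its log2 ratio was 0.83, -0.25, -0.20, -0.14 and 0.21 in CS+T3. It ran from -1.23 to -0.58 in CS (median -0.89), from -0.52 to 0.36 in T3 (median -0.04) and from -0.38 to 0.31 in VC (median -0.18), with n = 6 each. Every CS bird stood below every bird of the other groups, and CS+T3 replicate 1 stood above them all. SLC25A12 fell by 0.83 in CS against VC (SE 0.19, limma adjusted p = 0.0121), a 1.78-fold difference. The log2 difference was -0.84 in CS against T3 (SE 0.19, adjusted p = 0.00815) and 0.99 in CS+T3 against CS (SE 0.20, adjusted p = 0.00849). T3 differed from VC by 0.01, with a 95% interval of -0.38 to 0.39. The T3 effect was larger with corticosterone than without by 0.99 (SE 0.27, unadjusted p = 0.00142, adjusted p = 0.221). CS+T3 replicate 1 is 1 of the arrays moved back into place. Without it and the 3 others misplaced over most spots, the CS+T3 against CS difference of SLC25A12 was 0.74 (adjusted p = 0.0891) and the CS against VC difference was -0.80 (adjusted p = 0.0251). Of 36 other settings the call was lost in 3 in CS against VC, 4 in CS against T3 and 5 in CS+T3 against CS. Quantile normalization lost the call in all of these comparisons (adjusted p = 0.132, 0.115 and 0.0529 in that order).

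SLC25A13, or citrin, is the isoform of the same carrier that predominates in mammalian liver. It averaged -0.24 ± 0.22 in CS and 0.06 ± 0.23 in T3 (SD, n = 6 each), a log2 difference of -0.30 (SE 0.11, adjusted p = 0.0813). Its 4 spots did not run together, with CS against T3 differences of -0.31, -0.16, -0.82 and 0.23. Spot 3 alone differed by about as much as SLC25A12 did.

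SLC25A3 carries phosphate into the matrix for ATP synthesis. Its log2 ratio was 0.33, -0.17, -0.12, 0.09 and 0.14 in CS+T3, ran from -0.97 to 0.10 in CS (median -0.39, n = 6), was 0.17, 0.11, 0.15, -0.21 and -0.04 in T3, and ran from -0.27 to 0.03 in VC (median -0.16, n = 6). CS overlapped each of the other groups, through CS replicate 5 at 0.10 in particular. The fall in CS against T3 was a log2 difference of -0.51 (SE 0.15, limma adjusted p = 0.0409), and the call was lost in 15 of 36 other settings, among them without the 4 misplaced arrays (adjusted p = 0.105) and without CS replicate 4 (-0.42, adjusted p = 0.103). In CS+T3 against CS the value was 0.53 (SE 0.15, adjusted p = 0.0592) and in CS against VC it was -0.35 (SE 0.14, adjusted p = 0.177). On the 2 spots of SLC25A3 the CS against T3 differences were -0.95 and -0.22.

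SLC25A5 and SLC25A6 encode ADP/ATP translocases, which export ATP from mitochondria. They are close copies of each other, and a cDNA spot of one may also bind the other. SLC25A6 averaged 0.86 ± 0.27 in CS+T3 (SD, n = 5), with arrays at 0.93, 1.24, 0.58, 0.91 and 0.62. It ran from -1.0 to 1.48 in CS (median -0.23), from -0.13 to 0.94 in T3 (median 0.45) and from -0.33 to 0.34 in VC (median -0.07), with n = 6 each. All CS+T3 birds lay above all VC birds, while the CS birds spanned the whole range. SLC25A6 did not pass in CS+T3 against VC (0.91, SE 0.31, limma adjusted p = 0.748) or in CS+T3 against CS (0.98, SE 0.31, adjusted p = 0.0818).

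The 4 spots of SLC25A6 did not run together. Spot 1 was higher in CS than in VC by 0.74, while spots 2, 3 and 4 were lower by differences of -0.70, -0.59 and -0.82. CS replicate 3 gave a value on spot 1 alone, and that value, 1.48, is the highest of the group. CS replicate 3 is 1 of the 4 arrays misplaced over most spots. Without CS replicate 3 the difference in CS+T3 against CS was 1.30 and passed (limma adjusted p = 0.00583). Without all 4 of those arrays the difference was 1.28 and passed (adjusted p = 0.0256). With each spot set to a mean of 0 over the arrays before averaging it was 1.08 and passed too (adjusted p = 0.0254), but it did not pass in 33 of 36 other settings, with values down to 0.80 (adjusted p = 0.188) when 1 array was left out. In CS+T3 against CS all 4 spots were positive, at 0.69, 1.21, 1.52 and 1.69.

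SLC25A5 averaged -0.16 ± 0.13 in CS and 0.25 ± 0.41 in T3 (SD, n = 6 each), a difference of -0.40 (SE 0.16, limma adjusted p = 0.113). Its spots again differed, at 0.01 and -0.63. SLC25A22, a glutamate carrier, leaned the other way, at 0.14 ± 0.14 in CS (n = 6) and -0.16 ± 0.13 in T3 (n = 5), a difference of 0.30 (SE 0.09, adjusted p = 0.051). SLC25A10, the dicarboxylate carrier, was at 0.05 ± 0.18 in CS (n = 5) and 0.16 ± 0.19 in T3 (n = 6), a difference of -0.11 with a 95% interval of -0.32 to 0.11. SLC25A4, the remaining translocase on the array, SLC25A15 and SLC25A29 gave no value on any array.

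**Figure D2:**
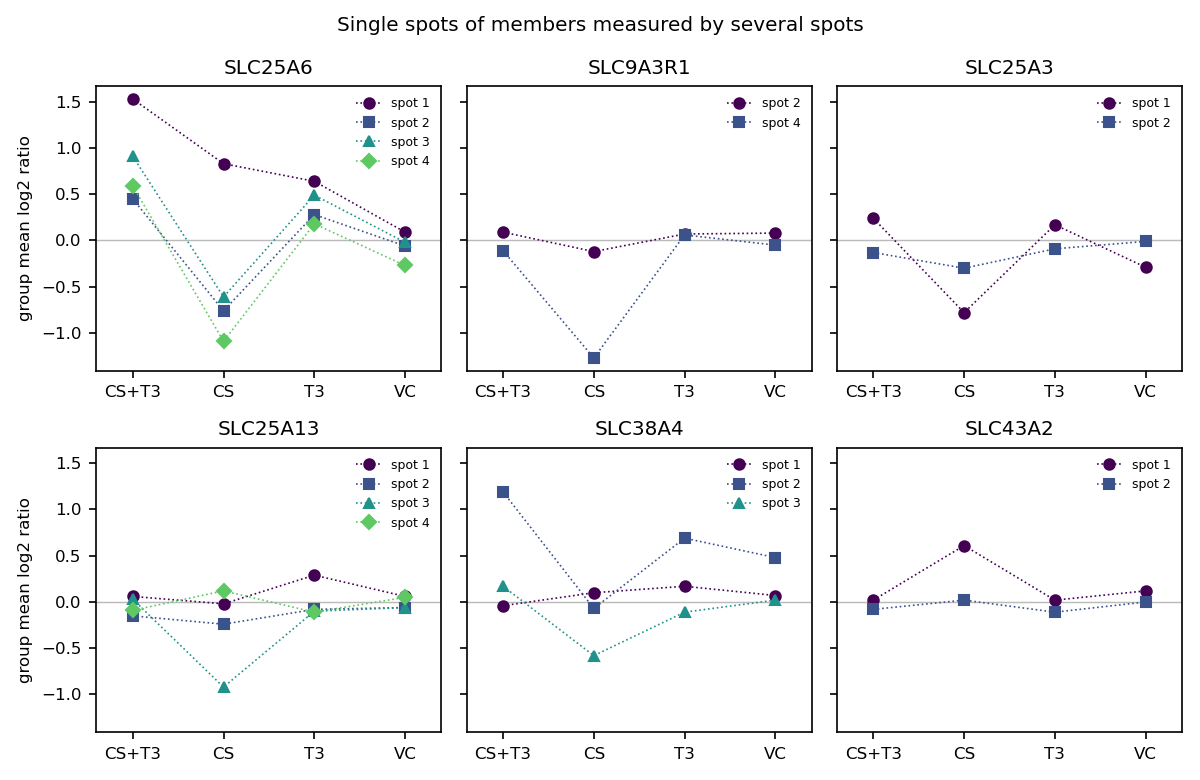
Mean log2 ratio of each group (vertical axis) for single spots of 6 members measured by several spots, with groups along the horizontal axis. Spots with at least 3 values in each group are drawn, each with its own symbol, and dotted lines only join the means of a spot. Spot 1 of SLC25A6 has a CS mean of 0.83 while its other 3 spots lie between -1.09 and -0.61, and spot 4 of SLC9A3R1 has a CS mean of -1.27 beside -0.12 on spot 2.

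SLC8B1 encodes the exchanger that lets calcium out of mitochondria in return for sodium. Array values were 0.10, 0.21, 0.32, 0.08 and -0.05 in CS+T3. They ran from -0.37 to -0.01 in CS (median -0.11), from -0.06 to 0.60 in T3 (median 0.17) and from 0.00 to 0.38 in VC (median 0.21), with n = 6 each. All CS birds lay below all VC birds, but CS overlapped T3 and CS+T3. SLC8B1 fell by 0.35 in CS against VC (SE 0.10, limma adjusted p = 0.0499) and differed by -0.33 in CS against T3 (SE 0.10, adjusted p = 0.0443). In CS+T3 against CS the value was 0.27 (SE 0.10, adjusted p = 0.141). Its 4 spots had the same sign in CS against VC, at -0.25, -0.13, -0.69 and -0.33. Both calls sit close to the threshold: the CS against VC one was lost in 27 of the 36 other settings tried and the CS against T3 one in 23 of 36.

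A further 6 carriers of sodium, potassium, calcium, chloride, phosphate or bicarbonate were tested and 0 passed. In CS against T3 they lay between -0.06 for SLC4A3, an anion exchanger, and 0.49 for SLC4A4, a sodium-bicarbonate cotransporter. They lay between -0.17 for SLC4A3 and 0.30 for SLC8A1, the sodium-calcium exchanger of the plasma membrane, in CS against VC.

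Of the 19 carriers of amino acids and their derivatives 15 were tested, and 1 passed, in CS against T3. Among all features 7.77% passed there, and with 15 genes 1 call cannot be told from that share. SLC43A2, or LAT4, carries large neutral amino acids without sodium. The log2 ratios were -0.24, -0.13, -0.10, 0.33 and -0.09 in CS+T3 and 0.40, 0.48, 0.29, 0.28 and 0.36 in CS. They ran from -0.23 to 0.12 in T3 (median -0.05, n = 6) and from -0.17 to 0.26 in VC (median 0.10, n = 6). All CS birds lay above all T3 and VC birds, and only CS+T3 replicate 4 reached them. SLC43A2 was higher by 0.41 in CS against T3 (SE 0.11, limma adjusted p = 0.0232), a 1.33-fold difference. The call was lost in 7 of 35 other settings. Among them were the fit without the 4 misplaced arrays (adjusted p = 0.0585) and quantile normalization (adjusted p = 0.128). In CS against VC the value was 0.29 (SE 0.11, adjusted p = 0.136) and in CS+T3 against CS it was -0.41 (SE 0.11, adjusted p = 0.0538). The 2 spots of SLC43A2 gave CS against T3 differences of 0.60 and 0.13.

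SLC38A4, a sodium-coupled transporter of neutral amino acids known from hepatocytes, was at 0.53, 0.04, 0.46, 0.88 and 0.30 in CS+T3. It ran from -0.42 to 0.38 in CS (median -0.24), from -0.12 to 0.89 in T3 (median 0.44) and from -0.25 to 0.34 in VC (median 0.27), with n = 6 each. The groups overlapped, though 5 of 6 CS birds were below 0 and all 5 CS+T3 birds above it. The differences were 0.61 in CS+T3 against CS (SE 0.19, limma adjusted p = 0.0772) and -0.55 in CS against T3 (SE 0.18, adjusted p = 0.0609). On its 3 spots the CS+T3 against CS differences had opposite signs, at -0.14, 1.26 and 0.76, and the CS against T3 differences were -0.07, -0.76 and -0.47.

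The remaining named amino acid carriers showed small differences. SLC1A4, which exchanges alanine, serine and cysteine, averaged -0.12 ± 0.20 in T3 (n = 6) and 0.15 ± 0.19 in VC (n = 5), a difference of -0.27 (SE 0.11, limma adjusted p = 0.96). SLC7A5, the large neutral amino acid transporter LAT1, was at -0.18 ± 0.16 in CS and -0.05 ± 0.09 in VC (n = 6 each), a difference of -0.12 with a 95% interval of -0.35 to 0.10. SLC38A2, a sodium-coupled carrier of the same family as SLC38A4, was at 0.15 ± 0.14 in CS+T3 (n = 4) and 0.01 ± 0.36 in T3 (n = 6), a difference of 0.13 with an interval of -0.16 to 0.43. The class as a whole had a median of -0.04 in CS against VC and 0.00 in CS against T3.

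Of the 12 metal carriers 9 were tested, and in CS against T3 1 fell and 1 rose. Among all features 7.77% passed in that comparison, and with 9 genes these calls cannot be told from that share. SLC30A4 moves zinc from the cytosol into vesicles. Its log2 ratio was 0.37, 0.18, 0.24, 0.65 and 0.40 in CS+T3, ran from -0.58 to 0.20 in CS (median 0.01, n = 6), was 0.11, 0.41, 0.52, 0.19 and 0.52 in T3, and was -0.04, 0.24, 0.14, 0.38 and 0.13 in VC. CS overlapped T3 and CS+T3 slightly and VC widely, and CS replicate 4 lay far below its own group. SLC30A4 was lower in CS than in T3 by a log2 difference of -0.41 (SE 0.13, limma adjusted p = 0.0485). In CS+T3 against CS the value was 0.43 (SE 0.13, adjusted p = 0.0707). The call in CS against T3 was lost in 22 of the 36 other settings.

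SLC30A6 belongs to a complex that loads zinc into the secretory pathway. Its log2 ratio was 0.10, -0.14, 0.36 and -0.13 in CS+T3, 0.29, 0.37, 0.25, 0.20 and -0.01 in CS, -0.57, -0.24, -0.35 and 0.00 in T3, and -0.09, -0.08 and -0.33 in VC. CS lay above VC throughout and met T3 only at its lowest bird. SLC30A6 was higher in CS than in T3 by 0.51 (SE 0.13, limma adjusted p = 0.0285), a 1.43-fold difference. This call was lost in 9 of 31 other settings, among them without T3 replicate 2 (0.42, adjusted p = 0.0926) and in a fit of only the groups compared (adjusted p = 0.077). In CS against VC it stood at 0.38 (SE 0.15, adjusted p = 0.158).

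The iron carriers showed no called difference. SLC11A2, or DMT1, which brings ferrous iron into the cytosol, was at -0.24 ± 0.24 in CS+T3 (n = 4) and -0.10 ± 0.18 in CS (n = 5), a difference of -0.15 with a 95% interval of -0.40 to 0.11. SLC40A1, or ferroportin, which exports iron, was at -0.15 ± 0.13 in CS+T3 (n = 5) and -0.03 ± 0.28 in CS (n = 6), a difference of -0.12 with an interval of -0.37 to 0.12. Its 2 measured spots differed in sign in CS against T3, at 0.44 and -0.49.

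Of the 10 carriers of nucleosides and nucleotide sugars 8 were tested and 1 passed, in CS against T3. Among all features 7.77% passed there, and with 8 genes 1 call cannot be told from that share. SLC35C2 is a Golgi protein related to the GDP-fucose transporter SLC35C1. Single birds read -0.21, -0.16, -0.11, 0.00 and 0.01 in CS+T3, -0.26, -0.56, -0.95, -0.11 and -0.64 in CS, 0.46, 0.08, 0.17, -0.34 and 0.61 in T3, and -0.17, -0.14, 0.07, 0.39 and 0.10 in VC. CS birds were lowest on the whole, and they overlapped each other group through their highest members. SLC35C2 was lower in CS than in T3 by a log2 difference of -0.70 (SE 0.17, limma adjusted p = 0.014), a 1.63-fold difference. The call was lost in 3 of 35 other settings. They were the fit without the 6 realigned arrays (adjusted p = 0.0749), quantile normalization (0.0677) and the fit of only the groups compared (0.0821). In CS against VC the value was -0.55 (SE 0.17, adjusted p = 0.0674). SLC35C1 itself stood at 0.28 in CS against T3 (SE 0.10, adjusted p = 0.103), and the nucleoside carrier SLC29A1 at 0.15. The other 7 tested members of the class lay between -0.24 and 0.28 in that comparison.

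Monocarboxylate carriers move lactate, pyruvate and ketone bodies, and 5 of 6 were tested with 0 called. The substrates of SLC16A4 are little known. Its log2 ratio was 1.71, 0.08, 0.65 and 0.01 in CS+T3, 1.10, 1.21, 1.06, 0.76 and 1.25 in CS, 0.18, 0.18, 1.64 and 0.03 in T3, and between -0.37 and 1.17 in VC (median 0.16, n = 6). The CS birds were high together, but 1 bird in each other group was as high. The difference in CS against VC was 0.85 (SE 0.32, limma adjusted p = 0.152). SLC16A1, the main lactate carrier MCT1, was at 0.33 ± 0.22 in CS+T3 and 0.20 ± 0.30 in T3 (n = 5 each), a difference of 0.13 with a 95% interval of -0.14 to 0.39. Spot 1 of SLC16A1 gave values on 2 T3 arrays alone (mean -0.64), and spot 2, measured in every group, differed by -0.10, so no direction can be read. SLC16A3, or MCT4, was at -0.14 ± 0.31 in T3 and 0.08 ± 0.39 in VC (n = 5 each), a difference of -0.21 with an interval of -0.57 to 0.14 that shrank to -0.04 without VC replicate 1.

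Sugar, fatty acid and vitamin carriers gave 0 calls in any comparison. SLC2A8, the glucose transporter GLUT8, was at 0.04, 0.44, 0.06 and 0.21 in T3 and at -0.25, -0.07, -0.08, -0.17 and -0.01 in VC, with no overlap. The difference of 0.30 (SE 0.09, unadjusted p = 0.00483) did not pass over all features (adjusted p = 0.96). SLC2A2, the main glucose transporter of mammalian hepatocytes, gave 1 value in CS+T3, 0 in CS, 3 in T3 and 3 in VC and was not tested. SLC27A1, a fatty acid transport protein, was at -0.14 ± 0.15 in CS+T3 (n = 5) and -0.51 ± 0.45 in T3 (n = 6), a difference of 0.37 (SE 0.16, adjusted p = 0.998), with T3 replicate 1, an array moved in part, at -1.34. Without that array the difference was 0.20. SLC27A4, of the same family, was at -0.46 ± 0.33 in CS (n = 5) and -0.23 ± 0.17 in VC (n = 6), a difference of -0.24 with a 95% interval of -0.55 to 0.08. SLC23A1, which takes up vitamin C with sodium, was at 0.11 ± 0.24 in CS (n = 5) and -0.17 ± 0.09 in T3 (n = 4), a difference of 0.29 (SE 0.12, adjusted p = 0.151). The 8 tested carriers of vitamins and cofactors spanned only -0.10 to 0.17 in CS against VC. SLC35F5, whose substrate is not known with certainty, was at -0.02 ± 0.22 in CS+T3 (n = 5) and 0.42 ± 0.35 in CS (n = 6), a difference of -0.45 (SE 0.15, adjusted p = 0.0946).

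**Figure D3:**
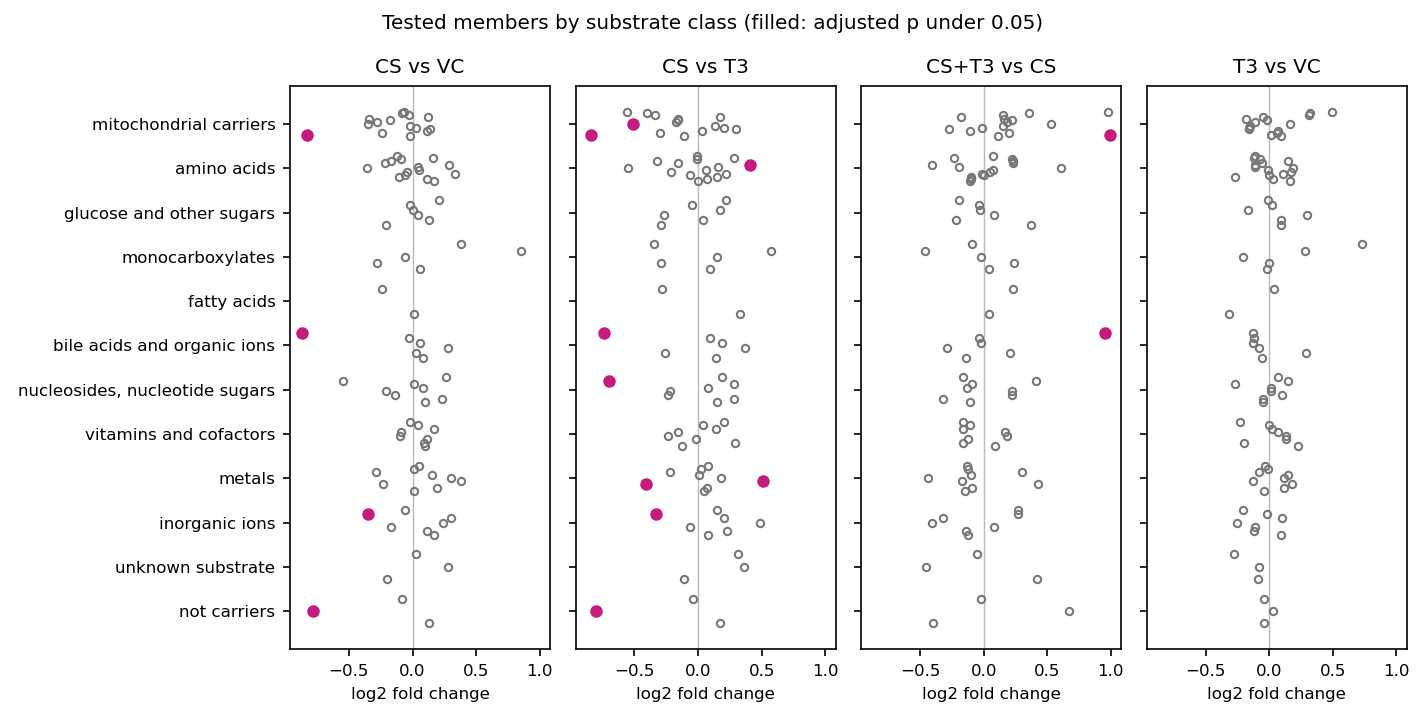
Log2 fold change (horizontal axis) of each of the 87 tested members in CS against VC, CS against T3, CS+T3 against CS and T3 against VC, with substrate classes down the vertical axis. Each circle is 1 gene and filled circles passed the test (limma, adjusted p under 0.05). The calls are spread over 7 classes, and the T3 against VC panel holds 0.

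SLC9A3R1 is not a carrier but a scaffold, also named NHERF1, that tethers transporters to the cytoskeleton beneath the apical membrane. Array values were -0.01, -0.16, 0.10, 0.06 and -0.24 in CS+T3. They ran from -1.64 to -0.17 in CS (median -0.39), from 0.00 to 0.17 in T3 (median 0.08) and from -0.37 to 0.25 in VC (median 0.14), with n = 6 each. CS lay below T3 throughout, and CS replicates 1 and 4, at -1.42 and -1.64, stood far below the other CS birds. SLC9A3R1 fell by 0.78 in CS against VC (SE 0.19, limma adjusted p = 0.0215) and differed by -0.80 in CS against T3 (SE 0.19, adjusted p = 0.0127). In CS+T3 against CS the value was 0.67 (SE 0.20, adjusted p = 0.0716). Of its 4 spots 2 were measured in every group, with CS against VC differences of -0.20 on spot 2 and -1.22 on spot 4. On spot 4 CS replicates 1 and 4 read -2.74 and -3.04. Without CS replicate 1 the CS against VC difference was -0.64 (adjusted p = 0.0552) and without CS replicate 4 it was -0.59 (adjusted p = 0.053). SLC9A3R2, the related scaffold, stood at -0.08 in CS against VC.

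Thyroid hormone on its own gave 0 calls among the solute carriers by limma with Benjamini-Hochberg adjustment, as among all features (0.0%). At an unadjusted p under 0.05 stood 5 of 87 in T3 against VC (5.75%, against 4.8% of all features). CS+T3 against VC likewise gave 0 calls among the members (0.054% of all features, and 2 of 87 at an unadjusted p under 0.05), and so did CS+T3 against T3 (0.0432%, 3 of 87). The interaction, or how far the T3 effect changed when corticosterone was also given, passed for 0 of 87 members (0.0865% of all features, 8 of 87 at an unadjusted p under 0.05). That SLC51A and SLC25A12 responded to T3 only beside corticosterone is therefore not established by this test.

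Several spots of a gene often disagreed. Among 30 members with at least 2 spots measured in every group, the spots had opposite signs for 17 in CS against VC, 16 in CS against T3 and 14 in CS+T3 against CS. In T3 against VC, where 0 members were called, it was 15. Of the 9 called members, 4 had several spots measured (SLC25A3, SLC43A2, SLC8B1 and SLC9A3R1), and in CS against T3 the spots of each had 1 sign. These members were called on the mean of the same spots, so the shared sign is no separate support for the calls. The sizes differed between spots, from -0.67 to -0.01 for SLC8B1 and from -1.34 to -0.19 for SLC9A3R1. SLC51A, SLC25A12, SLC35C2, SLC30A4 and SLC30A6 rest on 1 spot each.

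**Figure D4:**
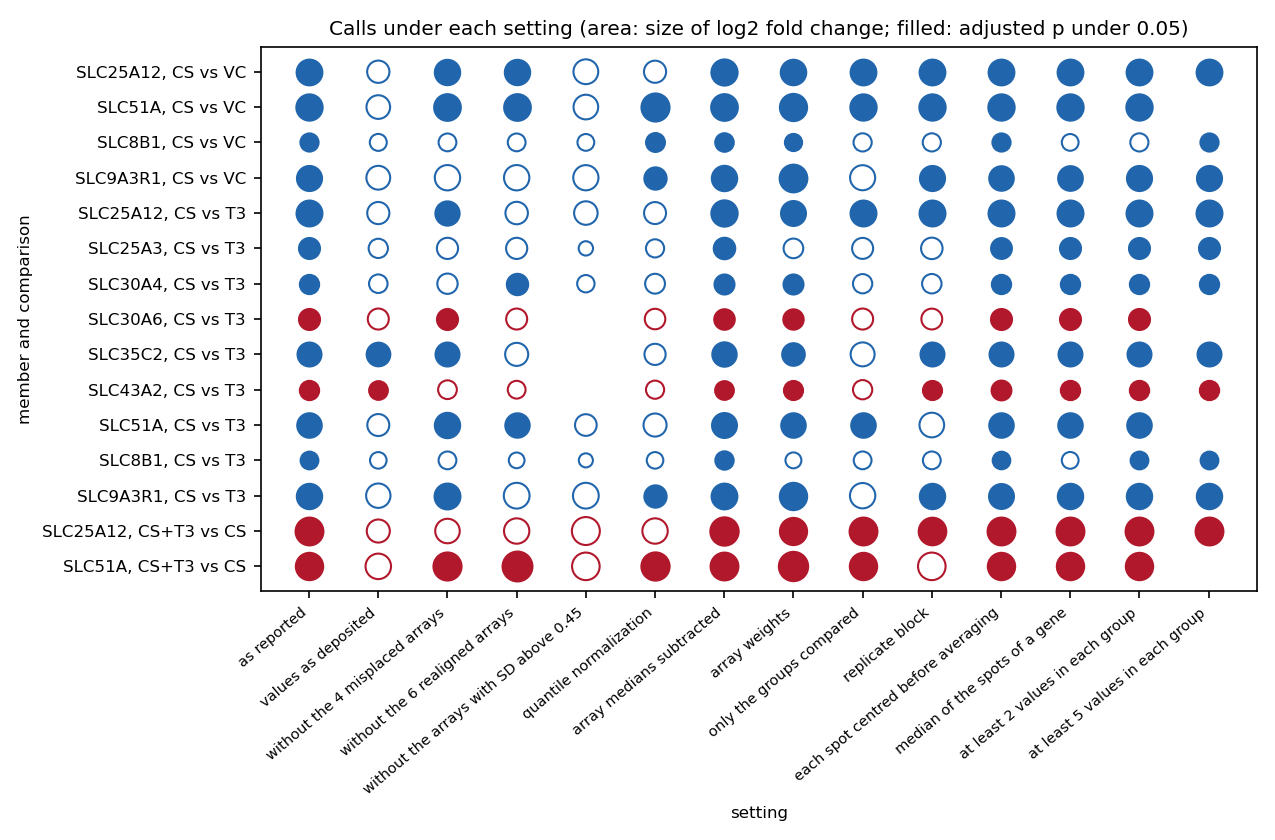
Each of the 15 member and comparison pairs past the test (rows) under the reported setting and 13 others (columns). The area of a circle grows with the absolute log2 fold change, blue is negative and red is positive, a filled circle passed the test (limma, adjusted p under 0.05), and a gap means that the gene could not be tested there. The direction is the same in every column, while with the values as deposited 2 of 15 pairs passed and without the arrays with an SD above 0.45 passed 0 of 12.

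Carriers outside the SLC symbols were looked at for comparison. Of 38 such genes listed, 18 were tested. SLCO1A2, an organic anion transporter that takes up bile acids and thyroid hormones in mammals, was lower in CS than in T3 by a log2 difference of -0.95 (SE 0.22, limma adjusted p = 0.0122) and higher in CS+T3 than in CS by 1.22 (SE 0.22, adjusted p = 0.00596). In CS against VC it stood at -0.73 (SE 0.21, adjusted p = 0.0563). SFXN3, a sideroflexin of mitochondria, was higher in CS than in T3 by 0.33 (SE 0.08, adjusted p = 0.014), and the other 16 passed in no comparison. Of 11 subunits of the sodium pump, which builds the gradient that sodium-coupled carriers use, 4 were tested and 1 passed. This was ATP1B1, a beta subunit, at -0.37 in CS against VC (SE 0.10, adjusted p = 0.0374), -0.46 in CS against T3 (SE 0.10, adjusted p = 0.00696) and 0.47 in CS+T3 against CS (SE 0.11, adjusted p = 0.0174). Of 10 accessory proteins of carriers 3 were tested and 0 were called. Among all features 4.03% passed in CS against VC, 7.77% in CS against T3 and 2.6% in CS+T3 against CS. With so few genes in each list, these calls cannot be told from those shares.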

How the data were processed

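Liver RNA of 23 samples, each taken as 1 bird, was measured on 2-colour arrays against a common pool. The deposited values were taken as log2 ratios made by the authors. The base is not stated and was taken as likely from their range (-3.863 to 4.0498), which does not fix it. Fold sizes rest on that reading. The normalization and scanner settings are not given in the sources used here. Blank values made up 28.5% to 53.5% of an array. Each array was compared with the others along the spot order at lags up to 40 spots. An array was realigned where a part of at least 1000 spots reached a correlation of 0.25 at another lag. Every part of such an array was then put at its own lag, and parts under 0.1 were left missing. No normalization was added. Spots were named from the platform annotation: 10601 had 1 symbol, 0 several and 8599 none, and 10455 matched the RefSeq table by Entrez ID with 0 differing symbols. Spots of a gene were averaged. The 9252 features with 3 or more values in every group, 4415 of them unnamed spots, were fitted together with limma 3.58.1 in R 4.3.3, with group means over all 23 arrays, empirical Bayes and Benjamini-Hochberg adjustment at 0.05, for 6 pairs of groups and the interaction. The fit was also run on simulated data with independent normal errors. These held no misplaced arrays and no arrays of wider spread, so that run does not test how such arrays affect the calls. The number of arrays limits the precision.

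Named members are those called in any comparison, the member of smallest unadjusted p in each substrate class, with its comparison, and the measured ones of a list of 41 carriers, of which 16 were tested. Substrate classes were set by gene symbol or, failing that, by family, so a class can hold members that carry something else. Members and lists were chosen with earlier results of these data known. Replicate numbers were not treated as pairs in the reported fit, since the labels do not state pairing. Residuals of same-numbered arrays correlated at -0.43 to 0.33 (median -0.03, 33 pairs) and of others at -0.31 to 0.40 (median 0.02, 165 pairs). These values show no shared shift by number but cannot exclude pairing. The labels give no slide or batch. Alternatives are listed under the dependence on processing.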

Additional observations from a re-analysis of the deposited data

Results flagged for a closer look

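Among 108 groups of 4 to 6 arrays of the named members, 7 held 1 array far from the rest by Dixon's ratio at the 95% level, and chance marks about 1 in 20 groups. SLC16A4 read 1.64 in T3 replicate 5, while the other 3 T3 arrays read 0.03 to 0.18. SLC1A4 read 0.29 in T3 replicate 5, with the others at -0.26 to -0.15. SLC16A3 read 0.76 in VC replicate 1, with the others at -0.16 to 0.00. SLC38A4 read -0.25 in VC replicate 6, with the others at 0.20 to 0.34. SLC25A22 read -0.42 in CS+T3 replicate 2, with the others at -0.13 to -0.02. That array gave a value on spot 3 of SLC25A22 alone, where the other CS+T3 arrays ran from -0.37 to -0.14. SLC43A2 read 0.33 in CS+T3 replicate 4, with the others at -0.24 to -0.09. SLC7A5 read -0.48 in CS replicate 3, with the others at -0.19 to -0.04. That array gave a value on spot 3 of SLC7A5 alone, where the other CS arrays ran from -0.50 to -0.19. On that spot it did not stand apart, and its gene mean lacks the spots that read higher.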

How the results depend on the processing

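The counts of called members moved more than the directions. Over 530 refits of the 15 called pairs of member and comparison, 389 stayed past the test, 141 did not and 0 changed sign. The reported counts are 4 in CS against VC, 9 in CS against T3 and 2 in CS+T3 against CS, where 373, 719 and 241 of all features passed. In that order they were 0, 2 and 0 when the values stayed at their deposited places (72, 233 and 5 of all features), 2, 5 and 2 without the 4 misplaced arrays (186, 334 and 63), 2, 2 and 1 without the 6 realigned arrays (237, 266 and 26), and 3, 1 and 1 after quantile normalization (145, 233 and 91). They were 4, 11 and 4 with array medians subtracted (375, 713 and 308), 9, 9 and 6 with array weights (809, 538 and 488, and 1 member for the interaction), and 2, 2 and 2 in fits of only the groups compared (316, 269 and 167). Alternatives chosen after seeing the data gave 4, 10 and 4 with each spot centred before averaging (371, 718 and 250), and 0, 0 and 0 of 47 tested without the 6 arrays with an SD above 0.45 (32, 7 and 0). In this last fit SLC25A12 stood at -0.76 (limma adjusted p = 0.117) and SLC51A at -0.75 (adjusted p = 0.0848) in CS against VC. With the replicate number as a block the counts were 3, 4 and 1 (243, 450 and 80 of all features), and the SLC51A difference in CS+T3 against CS was 0.97 (adjusted p = 0.0716).

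Leaving out 1 array at a time gave 2 to 7 in CS against VC, 4 to 12 in CS against T3 and 2 to 7 in CS+T3 against CS, and 0 to 0 in the other comparisons. The calls over all features moved too. CS against VC gave 2 without VC replicate 2, VC replicate 4 or CS replicate 4 (244, 259 and 216 of all features), and 7 without CS replicate 5 (597). CS against T3 gave 4 without CS replicate 2 or T3 replicate 6 (628 and 441) and 5 without T3 replicate 3 or CS replicate 4 (521 and 416). CS+T3 against CS gave 4 without CS replicate 2 (184) and 7 without CS replicate 5 (675). SLC25A12 and SLC51A passed in CS against VC and CS+T3 against CS in each of these refits, with adjusted p up to 0.0465. In CS against T3 SLC25A12 passed in each (adjusted p up to 0.0261), while SLC51A did not without T3 replicate 6 (-0.67, adjusted p = 0.0536). Sign changes were 2 among 658 refits of the other named pairs: SLC40A1 in CS+T3 against CS was 0.01 without the 6 realigned arrays, and SLC16A1 in CS+T3 against T3 was -0.06 with each spot centred. The cause of these shifts was not tested. Depth per spot is unknown, since no intensities were used.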
